A study of Drosophila melanogaster with 2 samples.

Results

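Of the 5817 peaks in the optimal list of Hnf4-GFP chromatin immunoprecipitation from Drosophila melanogaster larvae, 585 lay deep inside introns. A peak was counted as deep intronic where its summit fell in the body of a protein-coding gene on chromosome arm 2L, 2R, 3L or 3R, in no exon of any protein-coding gene, and more than 5000 bp from the nearest protein-coding transcription start site (TSS). The 585 were 12.4% (exact 95% binomial interval 11.4 to 13.3) of the 4735 optimal peaks on these 4 arms, and the other autosomal peaks were 788 intronic peaks 1 to 5 kb from a TSS, 755 intergenic peaks, 37 exonic peaks and 2570 peaks within 1 kb of a TSS, called promoter peaks here. The rule used position alone. It does not fix peak strength, replicate support or sequence, but it admits only summits in introns long enough to hold them, so it selects for long introns and long genes. The study holds 1 group of 2 biological replicates, replicate 1 and replicate 2. Both are pools of male and female wandering third-instar larvae of a single transgenic line, Hnf4-GFP, in which Hnf4 carries green fluorescent protein at its C terminus, and the age is given as unknown. In the labels the description speaks of an antibody to the fluorescent tag, but the antibody field says Hnf4. A single control served the 2 replicates. Whole larvae were used, so the number of cells with binding and the strength of binding per cell cannot be told apart, and no tissue is resolved.

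Hnf4 is a nuclear receptor that binds DNA as a homodimer at direct repeats and is known in flies for control of fatty acid oxidation, glucose homeostasis and lipid mobilisation in the fat body, gut and insulin-producing cells. Enhancers of fly genes often lie in long introns, far from the start site they act on. The wandering stage precedes metamorphosis, when the steroid ecdysone acts through its receptor EcR on early genes that themselves encode transcription factors.

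The sequences at the summits are shown first, because they carry the motif results described further down. The Hnf4 site was searched as CAAAGTCCA on both strands within 100 bp of each summit, and the direct repeat, a looser pattern of hexamers with 1 base between them, was searched in the same windows. All sequences are the plus strand of dm6, taken from the Release 6 reference, with capitals marking the match. In the names, a minus means that the motif reads on the other strand. The 3 printable members with the direct repeat and the 4 with the Hnf4 site are given, because they are the members in which the factor's own motif was found.
CG32486 direct repeat (minus), chr3L:3060845-3060905: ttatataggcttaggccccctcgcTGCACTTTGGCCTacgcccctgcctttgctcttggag
osa direct repeat (minus), chr3R:17704404-17704464: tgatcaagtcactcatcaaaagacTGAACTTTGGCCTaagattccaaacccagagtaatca
Spn direct repeat (plus), chr3L:2546220-2546280: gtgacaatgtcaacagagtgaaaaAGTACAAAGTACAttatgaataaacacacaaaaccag
Tet Hnf4 site (minus), chr3L:2833928-2833984: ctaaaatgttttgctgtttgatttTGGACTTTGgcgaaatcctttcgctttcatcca
ex Hnf4 site (minus), chr2L:441005-441061: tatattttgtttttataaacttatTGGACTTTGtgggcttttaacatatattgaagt
KrT95D Hnf4 site (plus), chr3R:24014274-24014330: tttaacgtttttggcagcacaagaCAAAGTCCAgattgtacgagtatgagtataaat
fz Hnf4 site (plus), chr3L:14281135-14281191: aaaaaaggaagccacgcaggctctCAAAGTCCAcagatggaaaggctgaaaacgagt

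A second set shows the 7-base sequence CAGTGCA, which had the highest share at summits relative to flanks among the sequences of its length ranked on chromosome 2. The 6 members are the strongest printable ones that hold it, and capitals mark CAGTGCA or its reverse complement TGCACTG.
CG42238 (minus), chr2L:21009411-21009465: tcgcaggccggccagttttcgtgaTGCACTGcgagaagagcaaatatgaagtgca
Socs36E (plus), chr2L:18145527-18145581: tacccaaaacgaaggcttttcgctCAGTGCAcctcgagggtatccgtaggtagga
Snoo (plus), chr2L:7916565-7916619: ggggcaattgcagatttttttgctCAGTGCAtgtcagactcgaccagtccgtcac
mub (plus), chr3L:21891499-21891553: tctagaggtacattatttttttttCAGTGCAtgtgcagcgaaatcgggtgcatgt
ush (minus), chr2L:530311-530365: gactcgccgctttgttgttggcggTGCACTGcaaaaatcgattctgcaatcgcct
knrl (plus), chr3L:20600908-20600962: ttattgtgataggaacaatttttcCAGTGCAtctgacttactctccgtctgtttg
For contrast, the 121 bases around the strongest summit in an ecdysone-induced gene held none of the 17 motifs searched and no CAGTGCA.
Eip75B, chr3L:18011836-18011956: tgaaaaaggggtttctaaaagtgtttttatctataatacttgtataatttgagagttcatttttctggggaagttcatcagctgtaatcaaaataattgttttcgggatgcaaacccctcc

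The deep intronic peaks were about as strong as intronic peaks nearer to a start site and weaker than promoter peaks. In the authors' signal value, an enrichment over the control whose scale is not stated in the sources used here, the 585 members ran from 66.7 to 1880 with a median of 103 and quartiles of 81.7 and 160. The medians of the other classes in the same list were 104 for intronic peaks at 1 to 5 kb, 110 for intergenic peaks and 122 for promoter peaks. Of the deep intronic peaks, 115 (19.7%) reached the strongest quartile of the autosomal list, against 28.7% of promoter peaks. Members were not alike in shape: 316 (54.0%) were regions of exactly 396 bp, and in 315 of these the deposited summit was the middle of the region. Those regions had a median of 84.5, against 164 for the 257 narrower members.

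Read in each replicate's own list, replicate 1 gave higher values than replicate 2 in 508 of 577 members with a value in both (88.0%), and the median ratio was 1.51. The median was 66.1 in replicate 1 over 581 members and 44.0 in replicate 2 over 581 members. Of the members listed in 1 replicate alone, 4 were in replicate 1 and 4 in replicate 2: Sobp, PRAS40, atos and an osa peak had a region in replicate 1, and Zasp52, Dhc36C, CG10947 and Lar had one in replicate 2. Across the 577 members the replicates' values were related with a Spearman coefficient of 0.66 and Pearson's r of 0.76 on log2 values, which describes peaks that share the 2 libraries and the control. The value in the optimal list was close to the sum of both replicates' values, with a median ratio of 0.998 and a range of 0.885 to 1.07 between the 5th and 95th percentiles.

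Replicate support was read as overlap with strong regions in both replicates. Taking as many of the strongest regions from each replicate's relaxed list as there are optimal peaks, 392 of 585 members (67.0%, interval 63.0 to 70.8) overlapped such a region in both replicates, against 68.5% of intronic peaks at 1 to 5 kb, 70.9% of intergenic peaks and 73.1% (71.3 to 74.8) of promoter peaks. The optimal list was itself derived from both replicates, and its values are close to the sum of theirs, so part of this overlap is built in, and so is any rise of support with strength.

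**Figure D1:**
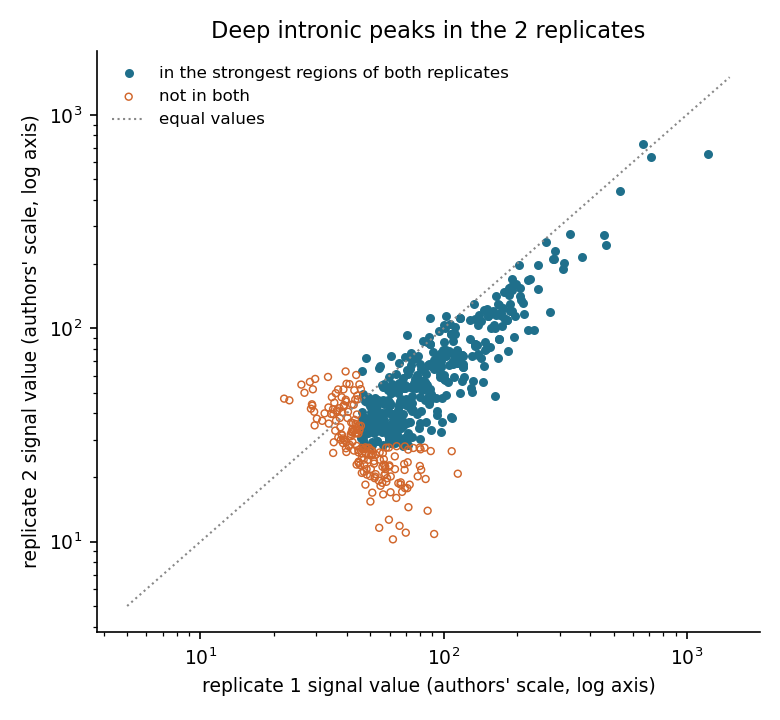
Signal value of each deep intronic peak in replicate 1 (horizontal, log axis) and replicate 2 (vertical, log axis) for the 577 members listed in both; filled points overlap the strongest regions of both replicates, open points do not, and the dotted line marks equal values. Most points lie below the line of equal values, and the points that are not in both sit in the lower left.

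The 3 strongest members stood well above the rest. In the first intron of dnr1, which encodes a ubiquitin ligase that restrains innate immune signalling and caspases, the strongest peak had a value of 1219 in replicate 1 and 654 in replicate 2 (1880 in the optimal list), 18.2 times the median member. The next was in the first intron of CG32486, with 658 in replicate 1 and 729 in replicate 2 (1380), 5712 bp from the nearest TSS. The next was in intron 4 of osa, which encodes a subunit of the Brahma chromatin remodelling complex, with 712 in replicate 1 and 632 in replicate 2 (1350). All 3 held the direct repeat within 100 bp of the summit, and replicate 1 was the higher one at dnr1 and osa and the lower one at CG32486. The osa summit lay 721 bp from the start of the long noncoding RNA lncRNA:CR46035, so a noncoding promoter is annotated near it.

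Below these, Eip75B, an ecdysone-induced nuclear receptor, had 532 in replicate 1 and 440 in replicate 2 (960) at 12075 bp from its nearest TSS. smash, which encodes a protein of epithelial junctions, had 456 in replicate 1 and 274 in replicate 2, and CG13917 had 467 in replicate 1 and 245 in replicate 2. Both smash and CG13917 held the FOXO site TGTTTAC within 60 bp of the summit. Mi-2, the nucleosome remodeller of the NuRD complex, had 332 in replicate 1 and 276 in replicate 2, and CG42238 had 370 in replicate 1 and 217 in replicate 2 at 40527 bp from any protein-coding TSS. Of the 20 strongest members that both replicates supported, the others lay in gpp (the H3K79 methyltransferase Dot1), fz (a Wnt receptor), Ptp61F (a tyrosine phosphatase of JAK/STAT signalling), dnr1 again at 500, Socs36E (an inhibitor of JAK/STAT signalling), Pgant9 (a glycosyltransferase), pyd (a junction protein), tkv (a BMP receptor), Snoo (a Smad cofactor), mub (an RNA-binding protein), EcR (the ecdysone receptor) and ush (a GATA cofactor). Their optimal values ran from 393 at ush to 516 at gpp. Only 11 of the 585 members were above 500.

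Deep intronic peaks thinned out with distance. Intronic sequence 5 to 10 kb from a TSS held 36.9 peaks per Mb (32.9 to 41.2), that at 10 to 20 kb held 27.7, that at 20 to 50 kb held 17.9 (14.2 to 22.4) and that beyond 50 kb held 0.798 (0.217 to 2.04), against 54.4 (50.7 to 58.3) at 1 to 5 kb. Weaker regions, which are the regions of the pooled relaxed list that overlap no optimal peak, fell too, at 222, 195, 149 and 11.8 per Mb in the same 4 bins and 290 at 1 to 5 kb. The optimal share of all intronic regions was 14.2%, 12.5%, 10.8% and 6.35% in the 4 bins, against 15.8% at 1 to 5 kb. The intervals cover counting error only. Peaks that reached the list at a distance were no weaker: medians were 104, 99.1, 108 and 110 in the 4 bins, and 104 at 1 to 5 kb.

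**Figure D2:**
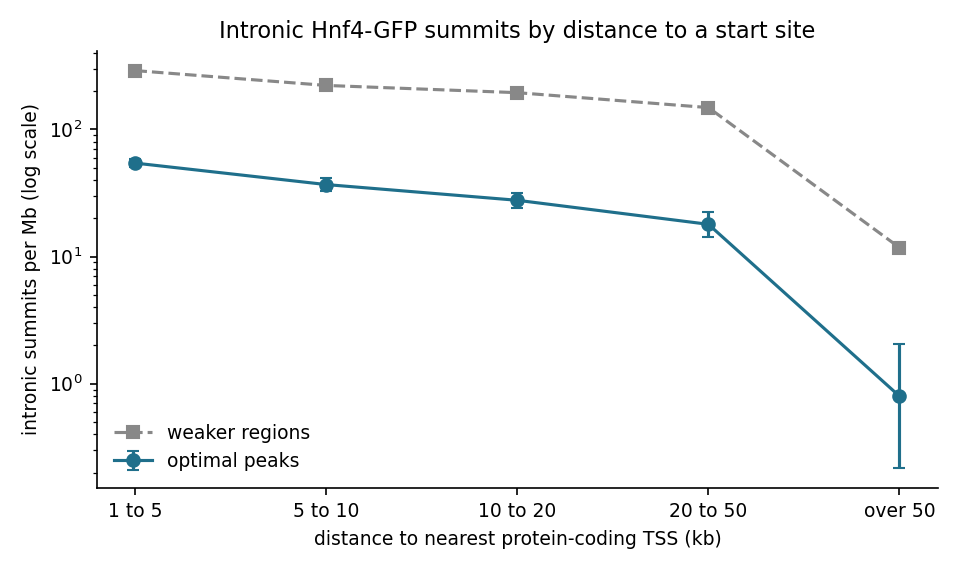
Optimal peaks and weaker regions per Mb of intronic sequence (vertical, log scale) by distance of the sequence from the nearest protein-coding TSS (horizontal, kb); bars on the optimal peaks are exact Poisson 95% intervals. Optimal density went down in each bin, from 54.4 at 1 to 5 kb through 36.9 at 5 to 10 kb to 0.798 beyond 50 kb, and weaker regions went down with it.

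Beyond 50 kb there were 4 optimal peaks in 5.01 Mb, 3 in hth and 1 in heph. hth encodes a homeodomain partner of Hox proteins, and its farthest peak, 80931 bp from any protein-coding TSS, had 57.6 in replicate 1 and 40.0 in replicate 2. heph encodes a polypyrimidine tract binding protein, and its peak at 50464 bp had 101 in replicate 1 and 57.1 in replicate 2. These 2 genes are named because their values were seen. Much of the farthest sequence is repetitive: 37.7% of it is soft-masked as repeats in the reference, against 21.0% at 5 to 10 kb. Counting only unmasked summits over unmasked sequence, the densities were 34.9, 26.0, 19.3 and 1.28 per Mb in the 4 bins, and 53.8 at 1 to 5 kb. The part of read mapping in the farthest bin was not tested. Myo81F, Pzl, lovit, CG17684 and DIP-lambda, with between 372 and 1955 kb of deep intronic sequence each, held neither an optimal peak nor a weaker region. How much of the farthest bin lies in these genes was not measured, so its low density may not describe distance alone.

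Over all deep intronic sequence, repeat-masked bases held members in proportion to their extent and transposable elements did not. Of the members, 145 summits (24.8%) fell on masked bases, which are 25.3% of deep intronic sequence. Annotated transposable elements are 8.80% of that sequence and held 2 summits (0.342%, interval 0.0414 to 1.23), 1 in Dmtn and 1 in CG33298, both in short INE-1 elements. Weaker deep intronic regions were as rare there, with 15 of 3929 (0.382%), and how reads in repeats were treated is not given in the sources used here.

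By chromosome arm, the density of members was 33.2 per Mb of deep intronic sequence on 2L, 20.5 on 2R, 21.4 on 3L and 22.1 on 3R. On unmasked sequence alone it was 30.8, 21.4, 21.5 and 23.0 in the same order of arms. The median signal value was 103, 106, 112 and 99.1 on the 4 arms, so the denser arm did not hold stronger members.

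Introns that held members were long, as the rule requires. Over the 585 members, the intron around the summit had a median length of 23400 bp, with quartiles of 13254 and 42494 bp. An intron with several members counts once for each of them. The median distance to the nearest TSS was 9557 bp and the farthest was 80931 bp. The first intron held 221 members (37.8%), the second 190 (32.5%) and later introns 174 (29.7%). The host gene's own TSS was the nearest one for 417 members (71.3%, 67.4 to 74.9), and for the other 168 (28.7%) another gene's TSS was nearer, so naming a peak by its host does not name its target. The summit was inside more than 1 gene body for 28 members.

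Just inside the 5000 bp limit were peaks in bmm, which encodes a triglyceride lipase, at 5006 bp (57.0 in replicate 1 and 37.1 in replicate 2), in vri, a clock repressor, at 5026 bp (63.0 and 25.1) and in dnt, a Ryk-family receptor, at 5034 bp (82.2 and 52.1), with replicate 1 first. Just outside were peaks in cv-c at 4996 bp (208 and 146), in CG46339 at 4991 bp (122 and 64.2) and in Mef2, a muscle transcription factor, at 4975 bp (93.3 and 44.8). The bmm, vri and dnt peaks had optimal values of 94.9, 80.0 and 134, and those in cv-c, CG46339 and Mef2, just outside, had 359, 189 and 136, each above the 3 just inside. These are single peaks, given as a description with no test.

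Many members had another optimal summit nearby. A summit of any class was within 1 kb of 110 members (18.8%) and within 5 kb of 348 (59.5%), while 114 (19.5%) had none within 10 kb. These shares were not computed for the other classes, so they do not show whether members lay closer together than other peaks. There were 30 members that overlapped another member, so a replicate region can count for both, and 6 entries repeated another member's interval. Neighbouring peaks and peaks in 1 gene are not independent, and the intervals given here treat them as if they were.

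Noncoding gene starts lay near few members, though near a larger share of members than of deep intronic bases. A start of an annotated noncoding gene lay within 1 kb of 23 members (3.93%, 2.51 to 5.84), of which 18 were ncRNA genes and 5 tRNA genes. The share was 2.75% for weaker deep intronic regions, 5.84% for intronic peaks at 1 to 5 kb and 18.8% (16.1 to 21.8) for intergenic peaks, and 1.99% of deep intronic bases lie that close. Among members in the strongest 50% of optimal peaks the share was 5.39% (2.90 to 9.05). The closest pairs were ex, an upstream component of Hippo signalling, with lncRNA:CR43717 starting 47 bp from a summit of 191 in replicate 1 and 121 in replicate 2, and Hipk, a protein kinase, with lncRNA:CR45808 starting 92 bp from a summit of 199 in replicate 1 and 161 in replicate 2. puc, the phosphatase of JNK signalling, had 2 members within 1 kb of lncRNA:CR44331, at 122 bp and 803 bp.

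The 585 members lay in 268 protein-coding genes. Of 1089 autosomal genes with at least 1 kb of deep intronic sequence, 261 hosted a member, a background of 24% for the counts of listed genes given further down. Another 7 hosts had less than 1 kb. One member was the most common count, in 131 hosts, and 24 hosts with at least 5 members held 165 of the 585 (28.2%). The share of hosts was 9.43% of genes with 1 to 5 kb of deep intronic sequence, 23.8% at 5 to 20 kb, 32.2% at 20 to 50 kb and 61.1% (44 of 72, 48.9 to 72.4) at 50 to 100 kb. It was lower in the longest genes, at 25.9% (7 of 27, 11.1 to 46.3) with 100 kb or more.

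The gene with the most members was sbb, which encodes the nuclear corepressor Scribbler: 12 members over 19.99 kb, running from 46.9 through a median of 149 to 207 in replicate 1 and from 24.2 through 78.3 to 156 in replicate 2, with 11 of the 12 in the strongest regions of both. Tet, a DNA and RNA methyl dioxygenase, held 11 members over 69.7 kb (35.4, 84.3 and 148 in replicate 1, and 20.2, 44.8 and 86.6 in replicate 2, as lowest, median and highest), and 6 were in both. jing, a zinc finger transcription factor, held 9 members over 82.8 kb, with 7 in both. Eip75B and Eip74EF, early ecdysone genes for a nuclear receptor and an ETS factor, held 9 each. Snoo, EcR and hth held 8 each, and tai, a coactivator of EcR, tara, a chromatin-associated regulator, and Glut4EF, a transcription factor, held 7 each. Support differed among them: 7 of 8 in Snoo and 7 of 8 in EcR were in both replicates' strongest regions, against 4 of 8 in hth and 3 of 7 in Glut4EF. The 10 genes with the most members were joined by an eleventh at a tie.

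Long introns were no guarantee of a peak. Of 27 genes with over 100 kb of deep intronic sequence, 20 hosted none. The longest without a member were Myo81F (1955 kb), Pzl (699 kb), lovit (427 kb), CG17684 (388 kb), DIP-lambda (372 kb), bru3 (250 kb), Snap25 (218 kb), l(3)80Fg (208 kb), Rbp6 (151 kb) and Gprk1 (142 kb). Masked repeats were 32.4% to 47.0% of this sequence in the first 5 of them, which also held no weaker region, and the part of read mapping in this was not tested. bru3 and Rbp6 had 20.8% and 23.0% masked, with 4 and 8 weaker regions. The genes named in this paragraph beyond those with members were chosen by this length.

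**Figure D3:**
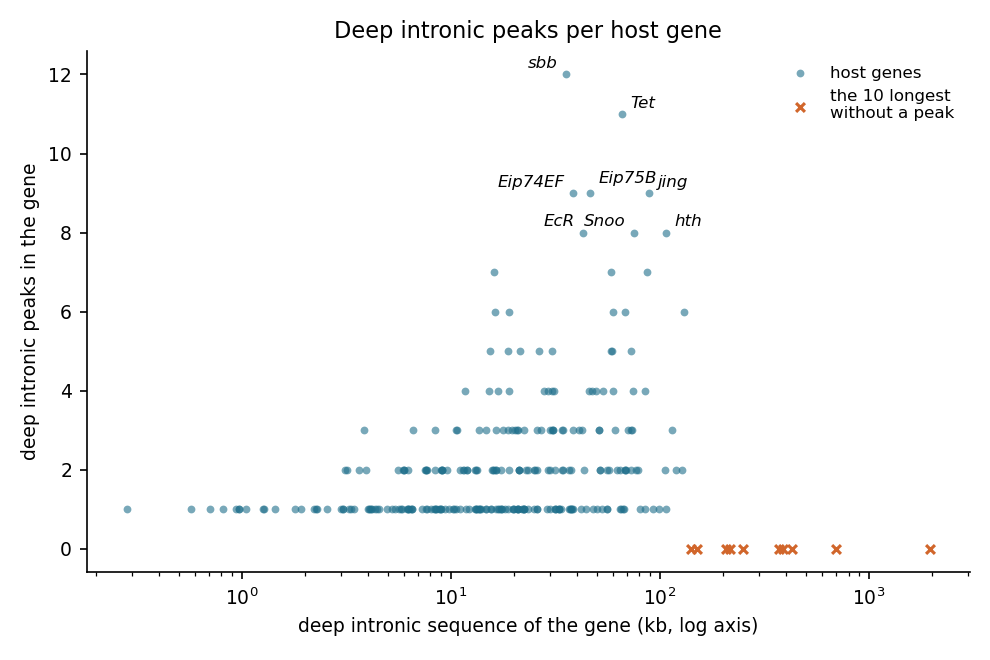
Number of deep intronic peaks per host gene (vertical) against the gene's deep intronic sequence (horizontal, kb, log axis), 1 point per gene; crosses are the 10 genes with the most deep intronic sequence and no peak. The 8 labelled genes hold 8 to 12 peaks each, and the crosses all lie beyond 100 kb.

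Genes with a deep intronic peak had a promoter peak more often than genes without one. An optimal summit within 1 kb of one of the gene's own TSSs was found for 171 of the 261 hosts (65.5%, 59.4 to 71.3), against 220 of 828 genes with deep intronic sequence and no member (26.6%, 23.6 to 29.7). The share was 63.3% of hosts against 33.3% of non-hosts with 1 to 5 kb, 63.1% against 27.0% with 5 to 20 kb, 71.4% against 19.8% with 20 to 50 kb and 62.7% against 6.25% above 50 kb. The level depends on which peaks are kept: with the strongest 50% of optimal peaks it was 41.3% of hosts against 17.5% of non-hosts, and with peaks supported by both replicates 50.2% against 22.5%. Hosts had a median of 2 annotated start sites and non-hosts 1, and the part of the number of start sites in the difference was not tested.

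Listed genes of the ecdysone response and other nuclear receptors were often hosts. The gene lists here and in the next paragraphs were written with earlier results of these data known. A high share of hosts in a list can therefore be partly built in, and the shares are descriptions only. Of 14 listed autosomal genes of this kind with at least 1 kb of deep intronic sequence, 11 (78.6%, 49.2 to 95.3) hosted a member, against 24% of all 1089. They held 11.3 members per 100 kb, against 2.35 over all. Their median was 25.3 kb of deep intronic sequence, and 32.2% of all genes with 20 to 50 kb were hosts. The 3 without a member were svp, dsf and Eip93F. The members' values varied widely between and within these genes. In EcR, 8 members over 36.5 kb of intron 3 had 41.1, 75.4 and 274 in replicate 1 and 28.5, 68.0 and 119 in replicate 2 as lowest, median and highest, and the highest lay 8948 bp from its own TSS. In Eip75B, 9 members spread over 31.5 kb, and apart from the peak of 960 the next, at chr3L:18009053-18009316, had 157 in replicate 1 and 100 in replicate 2. Eip74EF held 9 members but none above 119 in the optimal list, with 26.0 to 73.7 in replicate 1 and 11.9 to 54.4 in replicate 2. knrl, a nuclear receptor of the knirps family, had 1 member with 196 in replicate 1 and 114 in replicate 2. In tai the strongest of 7 members had 184 in replicate 1 and 78.4 in replicate 2, 35046 bp from the nearest TSS. Hr3, Hr38, Hr39, ftz-f1, Eip78C and the kinase gene Eip63E held 1 to 3 members each, and neither member of Hr39 was in the strongest regions of both replicates. Hnf4 itself is not among the genes with at least 1 kb of deep intronic sequence and held no member.

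Receptors and regulators of growth signalling gave a similar count. Of 12 genes, 9 (75%, 42.8 to 94.5) hosted a member, against 24% of all 1089. They held 9.61 members per 100 kb, against 2.35 over all. Their median was 16.3 kb of deep intronic sequence, and 23.8% of all genes with 5 to 20 kb were hosts. All 6 members of tkv were in both replicates' strongest regions, and its values ran from 56.1 to 203 in replicate 1 and from 31.8 to 198 in replicate 2. fz held 4 members, the strongest with 264 in replicate 1 and 255 in replicate 2, and the weakest, with 69.4 in replicate 1 and 17.8 in replicate 2, is the one printed above with an Hnf4 site. Ptp61F held 4 members up to 513 and spen, a Spen-family repressor, 3 members up to 284 in the optimal list. aop and babo held none. Counting only members in both replicates' strongest regions, 58.3% of these genes were hosts, against 18.8% of all 1089. For the regions of replicate 1 alone it was also 58.3% of these genes, and the share of all genes was not computed for that setting.

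Transcription factors and other regulators encoded by large genes hosted members in 15 of 23 cases (65.2%, 42.7 to 83.6), against 24% of all 1089. They held 5.82 members per 100 kb, against 2.35 over all. Their median was 28.8 kb of deep intronic sequence, and 32.2% of all genes with 20 to 50 kb were hosts. The part of length in the contrast with 24% was not tested. Besides transcription factors the list holds the chromatin genes osa and tou and the RNA-binding gene cpo, and without these 3 it was 14 of 20 (70%), at 5.685 members per 100 kb. osa had 6 members within 11.8 kb, of which 3 were in both replicates' strongest regions, and apart from the peak of 1350 they were between 78.9 and 139 in the optimal list. ush held 4 members, with 42.4, 111, 55.8 and 227 in replicate 1 and 36.0, 73.4, 32.6 and 170 in replicate 2 along the gene. Antp, a Hox gene, had a strongest member of 283 and jing one of 271. abd-A and Abd-B held none.

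The listed genes of neurons had few members for their length, and genes of neurons outside the lists were not counted. Of 26 neuronal adhesion and axon guidance genes 7 (26.9%, 11.6 to 47.8) hosted one, against the background of 24%. Their median was 29.15 kb of deep intronic sequence, and 32.2% of all genes with 20 to 50 kb were hosts. Over their 1034 kb of deep intronic sequence there were 1.16 members per 100 kb, against 2.35 over all. Among the listed genes the strongest were in Sema1a, a semaphorin, at 187, Fas3 at 103, robo2 at 93.9 and caps at 87.3 in the optimal list. beat-Ia and CadN2 held none, while beat-Ib and beat-IIIc, which are outside the list, had strongest members of 356 and 87.9. The share of hosts depended on the peaks kept: with the strongest 50% of optimal peaks it was 3.85%, against 14.2% of all 1089 genes. Keeping the peaks that both replicates supported gave 15.4%, against 18.8% of all. Among 13 genes listed as ion channels and synapse 2 (15.4%, 1.92 to 45.4) were hosts, at 0.340 members per 100 kb: Shal, a potassium channel, with 1 member of 218, and nAChRalpha6 with 1 of 96.1. brp and bru3 held none. The list also holds bru3 and Rbfox1, which encode RNA-binding proteins, and bru3 alone has 250 of its 588 kb. Without bru3 the density was 0.593 members per 100 kb, and without both 0.751. These larvae were not dissected, so how much neuronal chromatin each library held was not measured.

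The remaining lists were short on deep introns, which limits what they show. The background of 24% of all 1089 genes lay inside the interval of each one that had hosts. These intervals were 6.76 to 93.2% for insulin and nutrient signalling, 9.90 to 81.6% for the midgut list and 6.67 to 65.25% for muscle and heart. In insulin and nutrient signalling, 2 of 4 genes with deep intronic sequence were hosts. InR, the insulin receptor, held 5 members with 58.2, 88.6 and 119 in replicate 1 and 19.1, 26.6 and 76.5 in replicate 2 as lowest, median and highest, and 2 of the 5 were in both replicates' strongest regions. REPTOR, a transcription factor downstream of TORC1, held 1 of 110, and Atg1 and foxo held none. In the midgut list 3 of 7 genes matched by symbol were hosts (ab at 191, cad at 113 and nub at 98.2, with none in lab or pros). The Notch ligand Delta, listed there as Dl and so not matched, also held a member, with 175 in replicate 1 and 102 in replicate 2 (280), which makes 4 of 8. In the muscle and heart list 3 of 10 were hosts (Zasp52 at 124, how at 77.1 and mbc at 73.3, none of whose members were in both replicates' strongest regions, with none in Mef2 or Mhc). None of 2 sugar and lipid genes (LpR1, LpR2), of 1 fatty acid oxidation gene (Acox3), of 4 clock genes (among them cwo and Mef2) or of 2 detoxification and transport genes (Indy, MRP) hosted a member. Of 18 autosomal sugar and lipid genes 2 had at least 1 kb of deep intronic sequence. Of 15 autosomal fatty acid oxidation genes 1 had it, so these lists say little about deep introns. Genes with less were left out of all these counts, although 7 of them hosted a member. Among those, vri, the clock repressor named above, held 1 member of 80.0, bmm 1 of 94.9 and Pdk 1 of 168.

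The known motif of Hnf4 was rare at the members' summits. CAAAGTCCA was within 100 bp of 6 of 585 summits (1.03%, 0.377 to 2.22), against 0.382% (0.214 to 0.629) of 3929 weaker deep intronic regions, 0.171% of 1170 flanking windows of the same length centred 400 bp from the summits, 1.65% of intronic peaks at 1 to 5 kb, 0.795% of intergenic peaks and 0.895% of promoter peaks. The same bases in reverse order, ACCTGAAAC, were found at 0.342% of members and 0.342% of their flanks. The direct repeat was at 5 members (0.855%, 0.278 to 1.98), against 0.178% of weaker deep intronic regions and 0.0855% of flanks (0.00216 to 0.475). For both patterns the intervals of members and weaker deep intronic regions overlapped, since few sites were found. The median optimal value of the 5 was 1350, since 3 of them are the strongest members of all, whereas the 6 members with CAAAGTCCA had a median of 102. Near the strongest dnr1 summit both patterns overlapped each other, and a second dnr1 member 892 bp away, with 49.0 in replicate 1 and 47.4 in replicate 2, held both as well. The other members with CAAAGTCCA had optimal values of 115 (Tet), 107 (ex), 97.3 (KrT95D) and 72.9 (fz), around or below the members' median of 103: Tet had 84.3 in replicate 1 and 36.5 in replicate 2, ex 74.7 and 41.5 with replicate 1 first, KrT95D 65.2 in replicate 1 and 36.2 in replicate 2, and fz is given above. A match is a description of the sequence, and its absence says only that these letters are not in the window.

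Of the other motifs, each searched as its letters on both strands in the same windows, the FOXO and GAGA sites had intervals in members that lay above those of at least 1 comparison set. The FOXO site TGTTTAC was at 8.55% of members (6.41 to 11.1), 6.64% of weaker deep intronic regions and 3.68% (2.67 to 4.92) of flanks. The GAGA site GAGAGAG was at 5.13% (3.49 to 7.24), 2.70% (2.21 to 3.25) and 3.33% (2.38 to 4.53) of the same sets, and overlapping GA repeats count once per window. Neither was particular to deep introns. Intronic peaks at 1 to 5 kb, intergenic peaks and promoter peaks had FOXO sites at 9.01%, 3.97% and 7.74%, and GAGA sites at 5.46%, 1.99% and 7.16%. Around the members, GAGA sites numbered 20 per 100 bp within 50 bp of the summit and 51.5 at 100 to 200 bp, so they were not centred on it.  The GATA site AGATAAG was at 2.91% of members, 3.74% of weaker regions and 2.14% of flanks, and AP-1 sites (TGANTCA) at 4.96%, 5.42% and 5.64%. The E-box CACGTG was at 0.855% of members (0.278 to 1.98), 1.98% of weaker regions and 2.65% of flanks, and CACACACA at 4.79%, 3.67% and 7.61%. For 3 motifs the interval in members lay below that in promoter peaks: the replication element TATCGATA was at 0.342% of members and 6.89% of promoter peaks, the M1BP site GGTCACAC at 0.684% of members and 3.89% of promoter peaks, and the E-box at 0.855% of members and 2.65% (2.06 to 3.34) of promoter peaks. The part of an ecdysone element searched, GGTCANTGA, was at 2 members (0.342%) and the Grainyhead site AACCGGTT at none, which leaves up to 0.629% by the exact interval. Sites for Zelda (CAGGTAG), CREB (TGACGTCA), C/EBP (TTGCGCAA) and Stat (TTCCNGGAA) were at 0.171% to 0.684% of members.

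Sequences were also ranked with no motif in mind. All sequences of 7 bases present at 15 or more of the 259 members on chromosome 2, which were 618, were ranked by their share within 100 bp of the summits over that in the flanks, and the 5 highest were then read on the 326 members of chromosome 3, which the ranking did not use. CAGTGCA was at 36 of 326 summits on chromosome 3 (11.04%, 7.86 to 14.96), against 3.37% (2.13 to 5.06) of 652 flanks. CTGTGTA was at 6.13% against 0.920% of flanks, CACTGAG at 6.75% against 2.15%, CACAGTG at 7.06% against 1.69% and CAGTGTA at 8.28% against 1.69%. On chromosome 3 the ratios were 3.27, 6.67, 3.14, 4.18 and 4.91. CAGTGCA shares its first letters, CAGTG, with the fifth of these, and the third and the fourth carry the same run on one strand or the other, so they overlap in sequence and are not separate results. At least 1 of the 5 was at 102 of the 326 summits on chromosome 3 (31.3%, 26.3 to 36.6) and at 9.36% of flanks.

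CAGTGCA was not limited to deep introns. On chromosome 3, which the ranking did not use, it was at 11.04% of members, 5.25% (4.38 to 6.24) of weaker deep intronic regions, 8.79% (6.26 to 11.9) of intronic peaks at 1 to 5 kb, 17.5% (14.1 to 21.4) of intergenic peaks and 4.30% (3.29 to 5.51) of promoter peaks. The flanks of these sets had 3.37%, 2.58%, 2.61%, 3.48% and 4.19%. Over all arms, with the chromosome 2 peaks that chose it, it was at 70 of 585 members (11.97%), whose medians were 102 with it and 103 without. On chromosome 3 alone its share was 11.06% in members that both replicates' strongest regions supported and 11.01% in the others. Their flanks differed, at 4.38% (19 of 434, 2.66 to 6.75) and 1.38% (3 of 218, 0.285 to 3.97) in the same order. The strongest members that held it were in CG42238, Socs36E, Snoo, mub and ush, whose sequences are printed above.

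**Figure D4:**
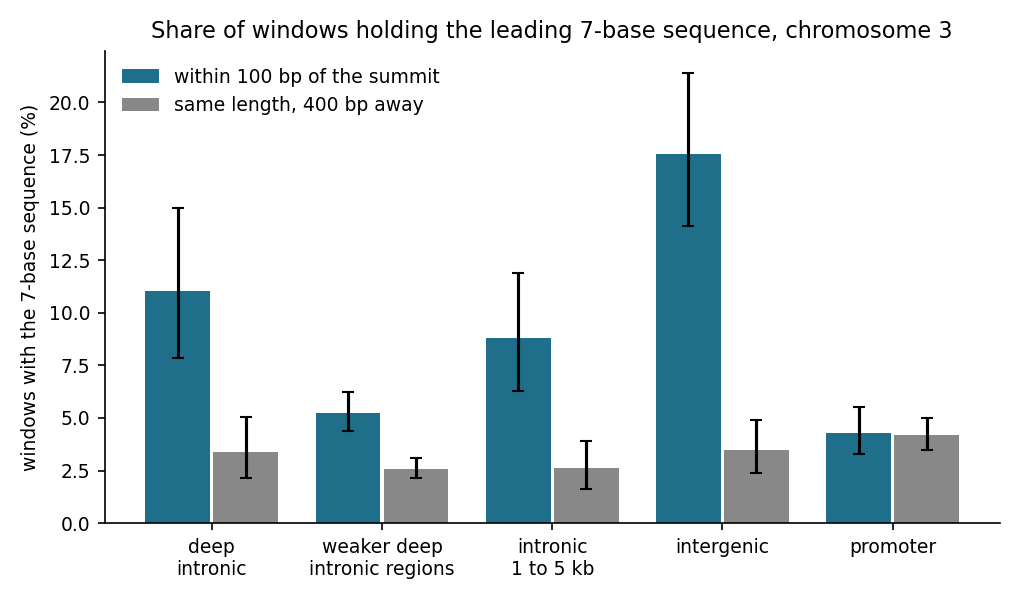
Share of windows (vertical, %) with the 7-base sequence CAGTGCA on either strand within 100 bp of the summit and in flanks of the same length centred 400 bp away, for 5 sets of regions on chromosome 3; bars carry exact 95% binomial intervals. Deep intronic peaks stand at 11.04% over flanks of 3.37%, and promoter peaks at 4.30% over 4.19%.

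The sequence also had a side. Read in its own 5′ to 3′ direction, CAGTGCA lay 25 to 125 bp downstream of the summit 36 times in the deep intronic peaks of chromosome 3 and as far upstream 13 times, so 73.5% (58.9 to 85.1) of these sites were downstream. On the same chromosome weaker deep intronic regions had 64.2% (55.6 to 72.2) downstream, promoter peaks 62.8% (51.1 to 73.5), intronic peaks at 1 to 5 kb 80.8% (67.5 to 90.4) and intergenic peaks 82.1% (72.9 to 89.2). Over all arms the counts at members were 69 and 22 (75.8%). Of these, in members with the fixed width of 396 bp the counts were 31 downstream and 14 upstream, and among the other members 38 and 8. CAGT is part of TCAGT, the core of the initiator element of fly promoters. TCAGT itself, over all arms, was 60.9% (55.1 to 66.4) downstream at members and 55.5% (53.0 to 58.0) at weaker deep intronic regions, and the reversed control TGACT was 60.5% (53.4 to 67.2) downstream at members and 48.3% at weaker regions, so the shorter core was not set apart from its control at the members. The side was examined after the sequence had been ranked, on the same peaks.

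**Figure D5:**
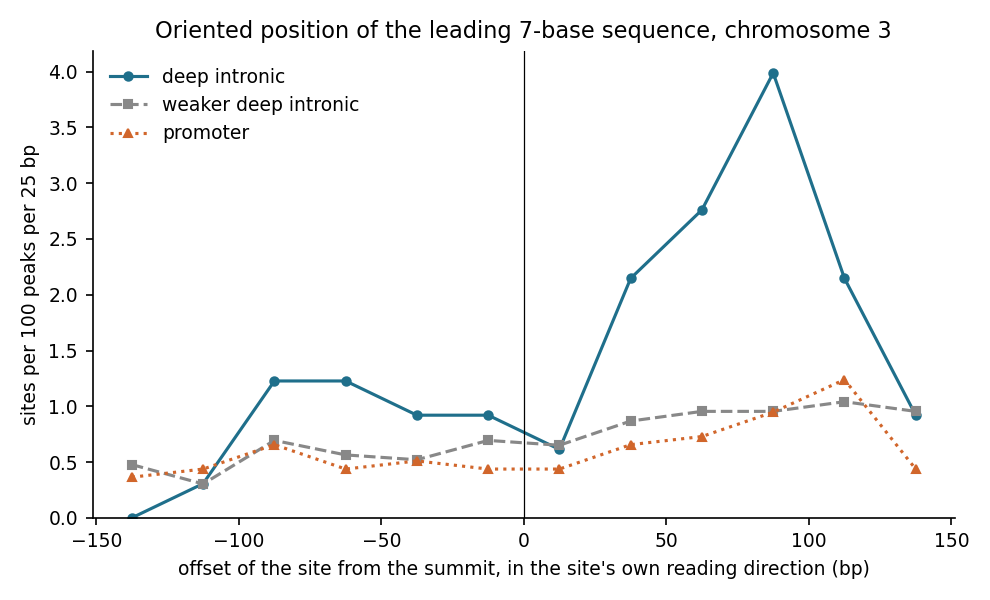
Sites of CAGTGCA per 100 peaks in bins of 25 bp (vertical) by offset from the summit in the reading direction of the site (horizontal, bp; positive is downstream) for deep intronic peaks, weaker deep intronic regions and promoter peaks on chromosome 3. The deep intronic line is highest between 75 and 100 bp downstream, where it reaches 3.99, and the other 2 lines stay at or below 1.24. The rise is not particular to deep introns: intergenic peaks of chromosome 3, not drawn, had 5.62 in that bin. Intronic peaks at 1 to 5 kb, also not drawn, had 2.375 there and 3.09 at 100 to 125 bp.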

How the data were processed

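Region lists of dm6 from 2 biological replicates were used: a relaxed list per replicate, a relaxed list of both pooled, and the optimal list kept by the irreproducible discovery rate, all derived by the authors against a control, per the deposited file descriptions. Each region carries a signal value, deposited by the authors as its enrichment over that control, whose scale is not stated. It also carries a −log10 q value, deposited by the authors in the narrowPeak format, which was read and not used for any result. The aligner and the peak caller, with their settings, are not given in the sources used. The lists hold no read counts: sequencing depth is unknown, and intervals cover the counting of peaks or genes alone. The dm3 lists were not used here.

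Summits are the region start plus the deposited offset, and printed positions are 1-based. Chromosome lengths were checked against the Release 6 reference, whose sequence and repeat masking were used, and genes came from Ensembl release 115. A peak belongs to the longest protein-coding gene whose body holds its summit. Deep intronic sequence is every base that meets the same position rule, and a gene enters the counts of hosts with at least 1000 bp of it. Weaker regions are pooled relaxed regions that overlap no optimal peak by 1 bp or more. Replicate support means overlap by at least 1 bp with the 5817 strongest regions of a replicate's relaxed list.

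No test was run across peaks, since 1 group of 2 replicates has no contrast, so sets are described by counts, medians and exact 95% binomial (Clopper-Pearson) or Poisson intervals. The motif search was tested on simulated sequences, and the members' distances and their absence from exons were recomputed by a direct search. Python 3.11.15, numpy 2.4.6, pandas 2.3.3 and scipy 1.17.1 were used. Motifs were searched within 100 bp of summits and in flanks 300 to 500 bp away. Genes are named if they host 1 of the 20 strongest members supported by both replicates, have 1 of the 10 highest member counts, host a member with an Hnf4 motif, are 1 of the 3 nearest on either side of the distance limit, or lead a gene list (up to 4 with and 2 without a member). Other genes are named for a stated property, after their values were seen. The members, the 12 gene lists and the 17 motifs were chosen with earlier results of these data known. Listed names LKB1, CRTC, SIK2, mir, Pdm1, Dl and dbt were not matched by symbol; of these Dl is Delta in the annotation, and Pdm1 is nub, which is listed too. Alternatives concerned the distance limit, the start sites used, the peaks kept, each replicate alone, overlap and window size. Those for gene lists, for promoter peaks of non-hosts and for CAGTGCA were added after seeing the data.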

Additional observations from a re-analysis of the deposited data

How the results depend on the processing

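Of 130 values recomputed for 16 results under 14 alternative settings, 104 stayed within the interval of the reported value (for counts, within 1.5 times) and 26 moved. No test was run, so no direction was called. With the limit at 10 kb there were 276 members in 135 genes, 5.83% of autosomal peaks, a density 0.352 times that at 1 to 5 kb, and CAAAGTCCA at 0.362% of members; at 3 kb the share was 17.8%. With 1 start per gene there were 1017 members in 409 genes (21.5% of peaks), the density ratio was 0.537 and 71.9% of hosts had a promoter peak; with noncoding starts included the share was 10.6%. In the strongest 50% of peaks there were 241 members in 156 genes (10.2%), 97.1% were supported by both replicates, 41.0% of hosts had a promoter peak and 3.85% of neuronal adhesion genes were hosts. Among peaks supported by both replicates the median relative to all autosomal peaks was 0.937 and 50% of hosts had a promoter peak. Support was 61.7% when at least 0.5 of the peak had to overlap and 98.6% with any relaxed region. The GATA site was at 6.15% of members within 200 bp, CAGTGCA at 3.99% within 50 bp and 16.3% within 200 bp on chromosome 3, and noncoding starts within 500 bp of 1.88%. Leaving out either replicate moved none of the 15 results that allow it; the share overlapping both replicates needs both. With 1 group and a shared control, no paired analysis was possible because there is no contrast to block. Depth is unknown, so a region absent from a list may not have been detectable.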
